A study of Drosophila melanogaster with 12 samples.

Results

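Transcripts of antioxidant enzymes and of the factors that regulate them were followed in Drosophila melanogaster heads. The genes were the superoxide dismutases Sod1, Sod2 and Sod3, the catalase gene Cat, the thioredoxin system genes Trx2 (also written Trx-2) and Trxr1 (Trxr-1), the glutathione synthesis genes Gclc and Gclm, and the regulators cnc and Keap1. A probe set was taken where its single gene in the platform's probe-to-gene table was one of these 10 genes. This gave 11 probe sets for 9 genes, out of 18952 probe sets on the array and 11982 genes named by a probe set of their own. By locus they were Sod2 (CG8905) and Sod3 (CG9027) on chromosome arm 2R, Cat (CG6871) on 3L, Trx2 (CG31884) on 2L, Trxr1 (CG2151) and Gclc (CG2259) on X, and Gclm (CG4919), cnc (CG43286) and Keap1 (CG3962) on 3R. The table names no probe set for Sod1, which is not analysed here. Sod3 and cnc had 2 probe sets each and the other 7 genes had 1, and all 11 passed the filter on dim probe sets.

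The 12 arrays held total RNA of whole heads, 3 arrays in each of 4 groups. The groups were non-conditioned flies at 0 h, conditioned flies at 0 h, non-conditioned flies at 24 h and conditioned flies at 24 h after a behavioural stimulus. All labels carry the letters OR, which they do not expand, and they state no genotype beyond that, no sex, no age and no kind of conditioning. Conditioned 0 h replicates 2 and 3 and conditioned 24 h replicate 2 are called biological duplicates of replicate 1. For the remaining arrays nothing of the kind is said, and the p-values rest on a spread between arrays that may be technical in part. Replicate numbers follow the order of the series and pair no arrays.

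Superoxide dismutases turn superoxide into hydrogen peroxide and oxygen, and catalase and the peroxidases then remove the peroxide. Flies lack glutathione reductase, so thioredoxin reductase and thioredoxin also keep glutathione reduced. The long isoform of cnc encodes CncC, the fly counterpart of mammalian Nrf2, which binds antioxidant response elements together with a small Maf protein. Keap1 hands CncC to a Cul3 ubiquitin ligase, and oxidants or electrophiles relieve this hold.

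Arrays correlated at 0.991 to 0.995 within groups and at 0.987 to 0.995 between groups, and no pair held identical values. Markers of photoreceptors (trp at 3910 to 5130, inaD at 1399 to 1587), neurons (elav at 623 to 766) and glia (repo at 297 to 427) were detected on all arrays. The 3 yolk protein transcripts, which mark female fat body, summed to 8629 in conditioned 0 h replicate 3 and to 12470 and 17710 in conditioned 24 h replicates 1 and 2. They summed to 199 to 277 on the other 9 arrays. The 7 transcripts of the male accessory gland summed to 825 in non-conditioned 0 h replicate 3 and to 24.1 to 44.6 elsewhere, and the sex of the heads was not tested by them. The 3 head fat body markers (Lsp2, apolpp and fit) summed to 10940 to 12340 in non-conditioned and 10280 to 10680 in conditioned heads at 0 h, and to 11180 to 15900 and 12620 to 14720 at 24 h. Lsp2, a larval serum protein, rose between the times by 0.45 without and 0.65 after conditioning (adjusted p = 0.0404 and 0.00496). The fat body gene fit rose by 1.35 without conditioning (adjusted p = 0.0199) and had 1.01 after it (adjusted p = 0.0892). In conditioned heads at 24 h, fit had 1375 and 1946 on the yolk arrays, replicates 1 and 2, and 527 in replicate 3. The part of these markers in the time differences below was not tested. Results below are also given without these arrays where that alters a call.

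The antioxidant gene that passed the threshold was Sod3, which encodes the extracellular copper and zinc superoxide dismutase. Its brighter probe set rose in conditioned heads at 0 h and was lower again in conditioned heads at 24 h. No other antioxidant probe set passed the threshold in any of the 5 comparisons of single groups and times, set at 0.05 for limma p-values adjusted by Benjamini-Hochberg over the 11261 probe sets kept. All values are linear intensities, and differences are on the scale of log2(intensity + 16), which understates changes of dim probe sets. In whole heads, a change in the share of a cell type and a change of RNA per cell cannot be told apart.

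**Figure D1:**
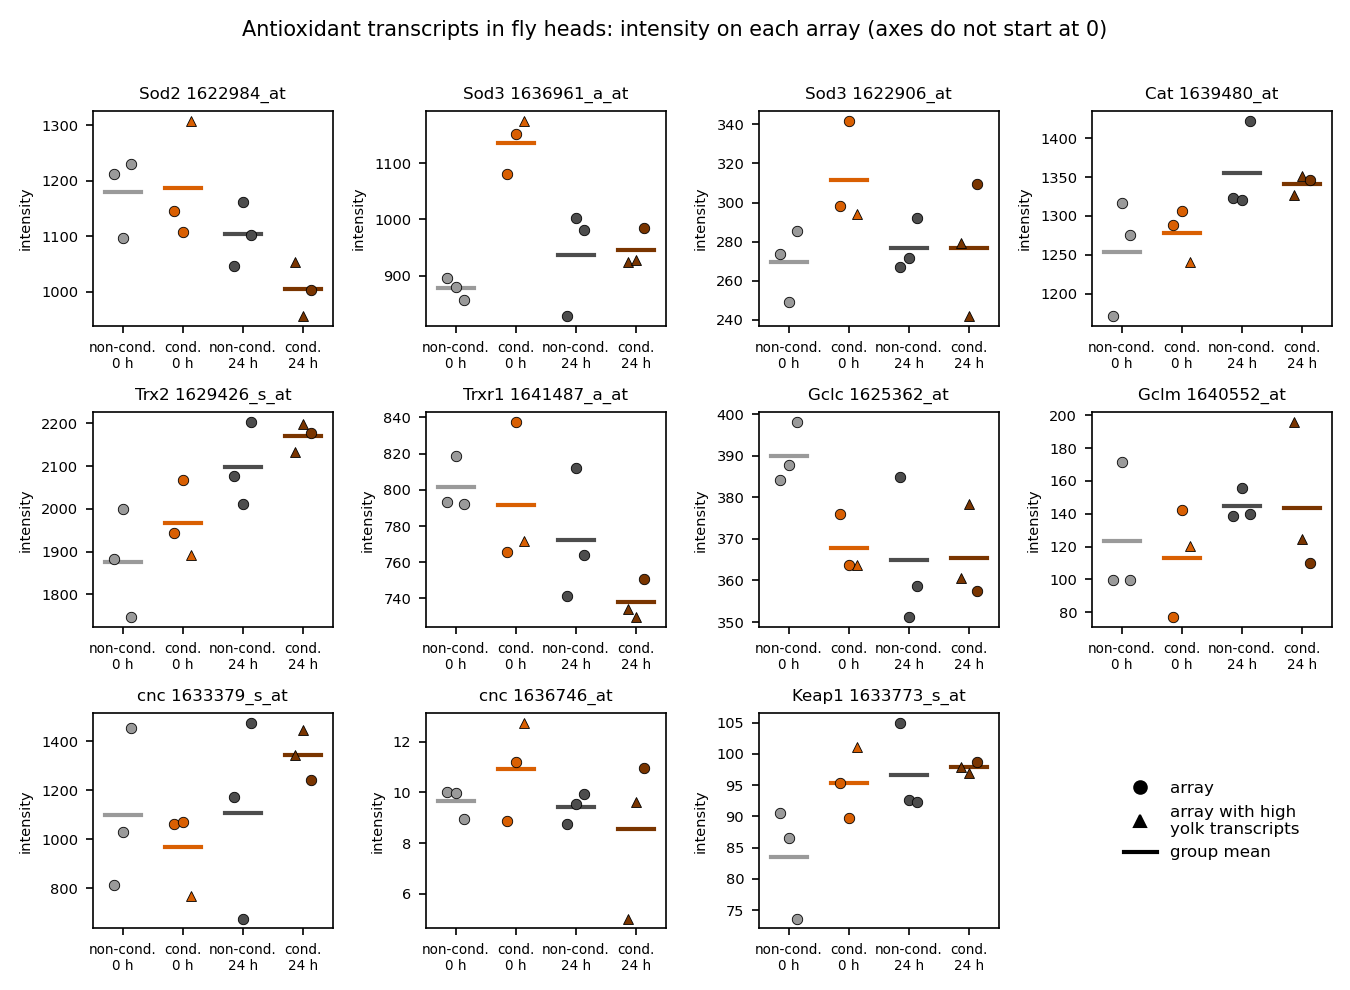
Intensity (linear, each panel with its own axis, not starting at 0) of the 11 probe sets on each of the 12 arrays, by group. Points are arrays, triangles are the 3 arrays with high yolk transcripts and bars are group means; the brighter Sod3 probe set (_a_at) lies at 1080 to 1175 in conditioned heads at 0 h, above all other arrays.

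On the non-conditioned 0 h arrays, the brighter Sod3 probe set had intensities of 895, 880 and 858. On the conditioned 0 h arrays it had 1080, 1151 and 1175, so these groups did not overlap. At 24 h it had 828, 1002 and 981 without conditioning and 925, 928 and 985 after conditioning. The conditioned 0 h arrays were the 3 highest of the 12, and the conditioned 24 h arrays also lay above the non-conditioned 0 h arrays. Group means in rising order were 878 ± 19.0 (SD, n = 3) in non-conditioned heads at 0 h, 937 ± 95 in non-conditioned heads at 24 h, 946 ± 33.7 in conditioned heads at 24 h and 1135 ± 48.9 in conditioned heads at 0 h. Only the last step of that order was free of overlap.

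The comparison of conditioned with non-conditioned heads at 0 h asks what differed right after the conditioning. There Sod3 rose by 0.36 ± 0.07 on the log2 scale (SE; 95% interval 0.23 to 0.50; adjusted p = 0.0155), or 1.29-fold. It was 1 of 11 antioxidant probe sets called, where 0.577% of all probe sets were called in either direction. Leaving out the array with accessory gland transcripts (non-conditioned 0 h replicate 3) ended the call (0.32, adjusted p = 0.113). It was also lost without conditioned 0 h replicate 2 (0.34, adjusted p = 0.124) or replicate 3 (0.36, adjusted p = 0.0602). Dropping the 3 yolk arrays gave 0.35 (adjusted p = 0.176). The size of the difference moved little, between 0.32 and 0.39 over all settings, and within the 8 arrays whose titles hold a # sign it was 0.32 (adjusted p = 0.215).

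The dimmer Sod3 probe set had a difference of the same sign that did not pass. Its arrays lay at 274, 249 and 286 in non-conditioned heads and at 298, 342 and 294 in conditioned heads at 0 h. The groups did not overlap, and the difference was 0.20 ± 0.08 (95% interval 0.03 to 0.36; adjusted p = 0.318). At 24 h its means were 277 ± 13.2 without and 277 ± 34.1 with conditioning. Probe sets with _a_at in their name read several transcripts of 1 gene, and which Sod3 transcripts each of these reads is not given in the sources used here.

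At 24 h, the conditioning difference of the brighter Sod3 probe set was 0.02 (95% interval -0.12 to 0.16; adjusted p = 0.999). Whether its conditioning effect differed between the times was tested directly as an interaction. The effect at 24 h minus that at 0 h was -0.35 ± 0.09 (95% interval -0.54 to -0.15), with an adjusted p of 0.301 that misses the threshold. In conditioned heads Sod3 fell by 0.26 from 0 h to 24 h (SE 0.07; 95% interval -0.40 to -0.12; adjusted p = 0.0319), a comparison that shares the conditioned 0 h arrays with the rise above. This call was lost without any one of the 6 conditioned arrays, with differences of -0.29 to -0.24 and adjusted p of 0.0593 to 0.134. Without the 3 yolk arrays it was -0.21 (adjusted p = 0.912), but a single conditioned 24 h array remains in that fit and is assumed to vary like the other groups. In non-conditioned heads the time difference of Sod3 was 0.09 (adjusted p = 0.545).

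**Figure D2:**
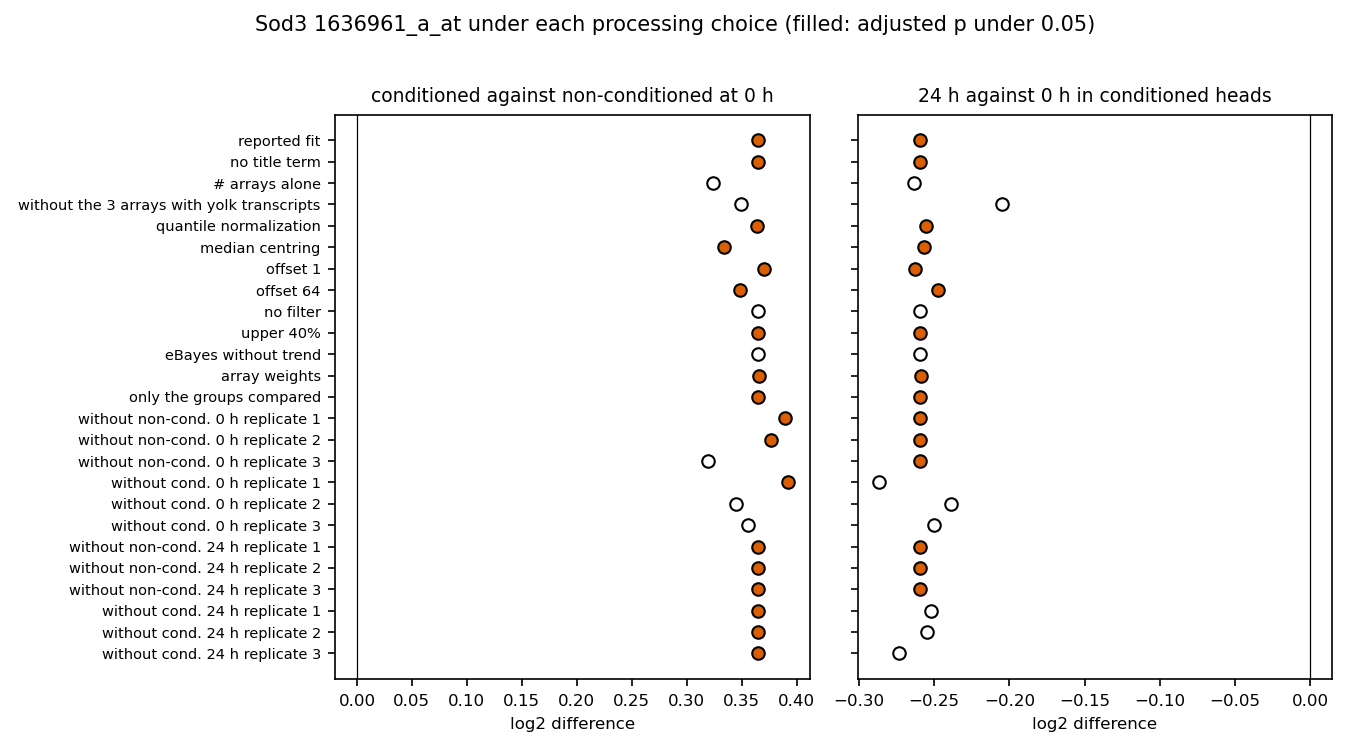
Log2 difference of the brighter Sod3 probe set under the reported fit and 24 other settings (rows), at 0 h between conditioned and non-conditioned heads (left) and between 24 h and 0 h in conditioned heads (right). Filled points have an adjusted p under 0.05; all points of a panel keep the same sign, and 17 of 24 other settings on the left and 14 of 24 on the right keep the call.

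The genes whose profile over the 12 arrays lay closest to that of Sod3 were Arp10, Gp93 and nSyb, with root-mean-square differences of centred log2 values of 0.067, 0.072 and 0.080. Sod3 itself departed from its own mean by 0.153 on this measure, and 8602 genes were compared. One of the 3, nSyb, is a neuronal marker. It had 786, 697 and 751 in non-conditioned and 904, 832 and 937 in conditioned heads at 0 h, a difference of 0.25 (adjusted p = 0.0691). The other neuronal markers had differences of -0.06 (elav) and -0.22 (the brightest probe set of brp), neither past the threshold. The 3 neuronal markers summed to 1480 to 1583 in non-conditioned and 1549 to 1744 in conditioned heads at 0 h, and the part of this in the Sod3 result was not tested. Nor was that of the fat body markers, which at 0 h differed without overlap by -0.28 (Lsp2, adjusted p = 0.359), -0.10 (apolpp, adjusted p = 0.75) and 1.11 (fit, adjusted p = 0.145).

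Sod2 encodes the manganese superoxide dismutase of mitochondria. It had 1213, 1097 and 1231 in non-conditioned and 1146, 1108 and 1308 in conditioned heads at 0 h, and the groups overlapped. At 24 h it had 1047, 1162 and 1102 without and 1053, 955 and 1003 with conditioning. The 3 conditioned 24 h arrays all lay below the 3 conditioned 0 h arrays. The order of means, from 1004 ± 48.9 in conditioned heads at 24 h over 1104 ± 57.3 and 1180 ± 72.6 without conditioning to 1187 ± 106 in conditioned heads at 0 h, had overlapping arrays at each step.

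In conditioned heads the time difference of Sod2 was -0.24 ± 0.07 (95% interval -0.38 to -0.10) with an adjusted p of 0.0542, just short of the threshold. It passed in 6 of 24 other settings, among them quantile normalization (adjusted p = 0.0304), and missed the threshold in the rest. Without the 3 yolk arrays the difference was -0.21, in a fit that leaves a single conditioned 24 h array. In non-conditioned heads it was -0.09 (adjusted p = 0.51). The conditioning effects of Sod2 were 0.01 at 0 h and -0.13 at 24 h, and the latter interval of -0.28 to 0.01 reached 0.

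Cat, the catalase gene, was among the steadiest transcripts. It had 1171, 1316 and 1275 in non-conditioned heads at 0 h against 1323, 1320 and 1422 at 24 h. In conditioned heads it had 1288, 1306 and 1241 at 0 h against 1327, 1351 and 1346 at 24 h. In both arms the 24 h arrays all lay above the 0 h arrays, although the differences of 0.11 and 0.07 had adjusted p of 0.332 and 0.596. Conditioning differences of Cat were 0.03 at 0 h (95% interval -0.09 to 0.15) and -0.01 at 24 h (-0.14 to 0.11). From lowest to highest array Cat spanned 1.21-fold.

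Trx2, a cytosolic thioredoxin, had 1883, 1999 and 1746 at 0 h and 2076, 2012 and 2203 at 24 h without conditioning. After conditioning it had 1944, 2067 and 1891 at 0 h and 2134, 2198 and 2177 at 24 h. Neither arm's groups overlapped, but the differences of 0.16 ± 0.06 and 0.14 ± 0.06 missed the threshold (adjusted p = 0.185 and 0.253). Without conditioning Trx2 passed under quantile normalization (0.22, adjusted p = 0.0248) and with array weights (0.21, adjusted p = 0.0456). Its group means rose from 1876 ± 126 and 1968 ± 90.4 at 0 h to 2097 ± 97.4 and 2170 ± 32.5 at 24 h, non-conditioned before conditioned at each time, with overlap at each step.

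Trxr1, the thioredoxin reductase that serves Trx2, had time differences of the opposite sign. Its means ran from 738 ± 11.3 in conditioned heads at 24 h over 772 ± 36.0 and 792 ± 39.8 to 802 ± 15.0 in non-conditioned heads at 0 h. The 3 conditioned 24 h arrays, at 734, 730 and 751, lay below the conditioned 0 h arrays at 766, 837 and 772. That time difference was -0.10 ± 0.05 (adjusted p = 0.369), and without conditioning it was -0.05 (adjusted p = 0.675).

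Averaging the time difference over both arms, a comparison chosen after the data had been seen, called Sod2 as lower and Trx2 as higher at 24 h. Sod2 fell by 0.17 ± 0.05 (adjusted p = 0.0303) and Trx2 rose by 0.15 ± 0.05 (adjusted p = 0.0399). These were 2 of 11 antioxidant probe sets, where 12% of all probe sets were called, so the share lies near the background. The call of Trx2 was lost under median centring, and both were lost without the 3 yolk arrays (adjusted p = 0.395 for Sod2 and 0.474 for Trx2) and within the # arrays (0.348 and 0.464). Leaving out single arrays ended the call of Sod2 for 7 of 12 arrays and that of Trx2 for 8 of 12, with differences of -0.19 to -0.14 and of 0.12 to 0.17 over the 12 fits. The 7 arrays that ended both calls were replicates 1 and 3 of each 0 h group, replicate 3 of the non-conditioned 24 h group and replicates 2 and 3 of the conditioned 24 h group, while replicate 1 of the latter ended that of Trx2 alone. The profiles nearest to Sod2 were those of Pph13, CG10428 and CG15084 (0.051, 0.053 and 0.056 on the measure given for Sod3). Those nearest to Trx2 were Prosalpha7, axed and Rpt2 (0.040, 0.044 and 0.047).

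**Figure D3:**
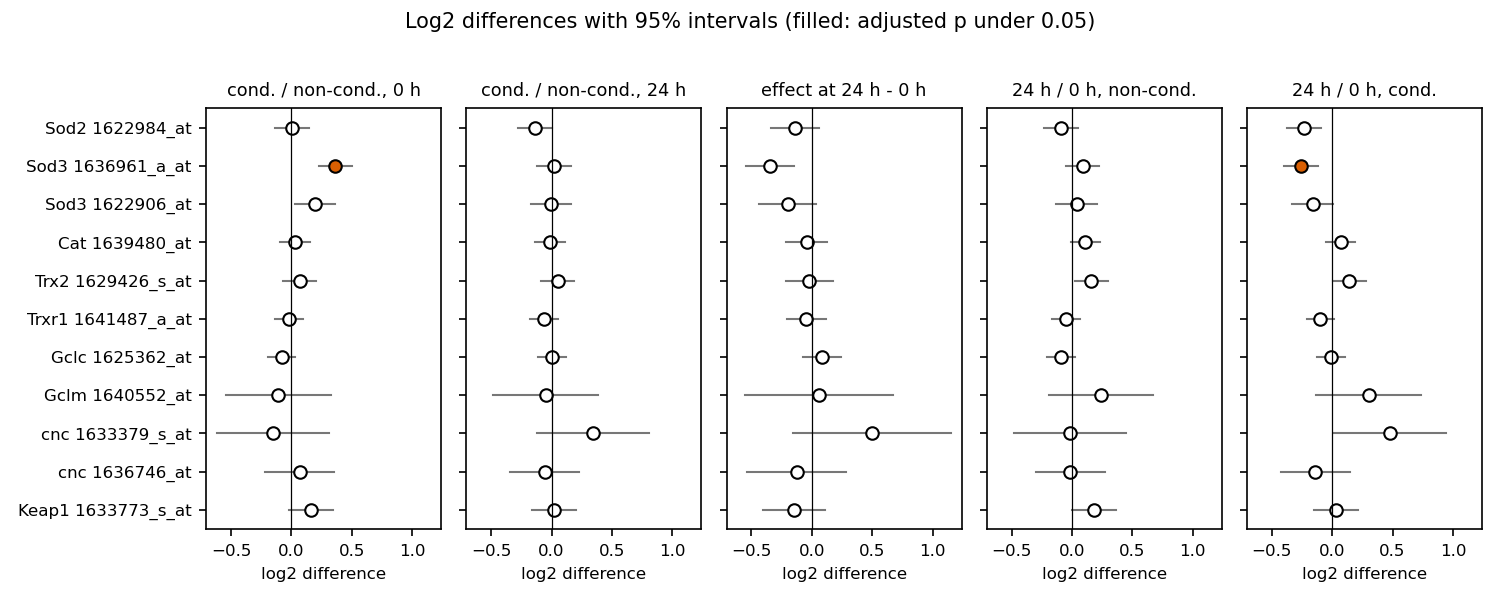
Log2 differences (points) with 95% intervals (lines) of the 11 probe sets in the 5 comparisons of single groups and times. Filled points have an adjusted p under 0.05: the brighter Sod3 probe set at 0.36 between conditioned and non-conditioned heads at 0 h and at -0.26 between 24 h and 0 h in conditioned heads; intervals of Gclm and the brighter cnc probe set are the widest.

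Gclc and Gclm encode the catalytic and the modifier subunit of glutamate-cysteine ligase, which makes the precursor of glutathione. Gclc had 384, 388 and 398 in non-conditioned heads at 0 h and 376, 364 and 364 in conditioned heads, so the groups did not overlap. The difference was small and missed the threshold, at -0.08 ± 0.05 (95% interval -0.20 to 0.03; adjusted p = 0.577). At 24 h the means of 365 ± 17.7 and 365 ± 11.3 differed by 0.00 (95% interval -0.11 to 0.12). Non-conditioned heads at 0 h were thus the highest of the 4 groups for Gclc and the only one free of overlap with its neighbour in the order of means. They were not apart from all other arrays, since non-conditioned 24 h replicate 1, at 384.9, lay within their range of 384.1 to 398.1.

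Gclm varied far more from array to array. It had 99.6, 172 and 99.6 in non-conditioned and 76.8, 143 and 120 in conditioned heads at 0 h. At 24 h it had 139, 156 and 140 without and 196, 124 and 110 with conditioning, and all neighbouring groups overlapped. The time differences were 0.24 ± 0.20 and 0.30 ± 0.20 in the non-conditioned and the conditioned arm (adjusted p = 0.6 and 0.497), and their intervals, -0.19 to 0.67 and -0.13 to 0.73, leave room for sizeable changes in either direction. The 2 subunits shared no direction over time, Gclc being at -0.09 and -0.01.

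The brighter cnc probe set was the regulator with the widest spread. It had 811, 1030 and 1452 in non-conditioned and 1063, 1071 and 770 in conditioned heads at 0 h. At 24 h it had 1172, 676 and 1473 without and 1342, 1447 and 1240 with conditioning. The non-conditioned groups thus spanned most of the whole range at both times, while the conditioned 24 h arrays all lay above the conditioned 0 h arrays. That difference was 0.48 ± 0.22 (95% interval 0.02 to 0.94; adjusted p = 0.256), and it passed in 1 of 24 other settings, the fit of only the 2 groups compared (adjusted p = 0.000292). The fit of only those groups leaves out the non-conditioned arrays with their wide spread, and the part of this in the call was not tested. In that setting the calls over all probe sets between the times after conditioning rose too, as given below. Without the 3 yolk arrays the fitted time difference of cnc in conditioned heads was -0.47. The arrays themselves did not fall, since the remaining 24 h array, at 1240, lay above the remaining 0 h arrays at 1063 and 1071. That fit sets 1 conditioned 24 h array of the title form without # against 2 conditioned 0 h arrays with it. Its title term is estimated from the non-conditioned arrays alone, and the minus sign arises from that term.

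The other cnc probe set was dim, with group means of 8.55 ± 3.12 to 10.9 ± 1.95 near the filter's floor of 8.05, and its largest difference was -0.14 (adjusted p = 0.669). Its value in conditioned heads between the times had the opposite sign to that of the brighter one. Probe sets with _s_at in their name can read several transcripts or related genes, and cnc has several isoforms of which CncC is the longest. Which isoforms these probe sets read is not given in the sources used here.

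Keap1 had 90.5, 86.5 and 73.7 in non-conditioned heads at 0 h, the lowest group. It had 95.3, 89.8 and 101 in conditioned heads at 0 h, 105, 92.6 and 92.3 without conditioning at 24 h, and 97.9, 96.9 and 98.7 with conditioning at 24 h. The non-conditioned groups did not overlap between the times, a difference of 0.18 ± 0.09 (95% interval just below 0 to 0.36; adjusted p = 0.289). The conditioning difference at 0 h was 0.16 ± 0.09 (adjusted p = 0.464). The array lowest in Keap1 was also the one with accessory gland transcripts.

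Over the 9 genes, by their brightest probe set, the median conditioning difference was 0.01 at 0 h and 0.00 at 24 h, against 0.01 and 0.00 over all probe sets. At 0 h 2 of 11 probe sets, both of Sod3, had an unadjusted p under 0.05, against 12.2% of all probe sets. Groups did not overlap for 1 gene that was higher and 1 that was lower at 0 h, Sod3 and Gclc, where 9.84% of all probe sets were higher and 7.71% lower without overlap. At 24 h there was no such gene, and 10.5% of all probe sets had such groups. In that comparison limma called 0 of 11 antioxidant probe sets, 0 had an unadjusted p under 0.05 (4.33% of all probe sets), and 0% of all probe sets were called. In the interaction it also called 0 of 11, with 1 unadjusted p under 0.05 (Sod3, against 7.19% of all probe sets) and 0% of all probe sets called.

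Between the times, the median over the 9 genes was 0.09 in non-conditioned and 0.03 in conditioned heads, against 0.00 and -0.01 over all probe sets. Without conditioning limma called 0 of 11, with 1 unadjusted p under 0.05 (Trx2, against 17.9% of all probe sets), where 5.22% of all probe sets were called. After conditioning it called 1 of 11 (Sod3), where 4.67% of all were called. There 4 of 11 had an unadjusted p under 0.05 (Sod2, Sod3, Trx2 and cnc), against 18.2% of all probe sets. Groups free of overlap were found for 3 of 9 genes without conditioning, all higher at 24 h (Cat, Trx2 and Keap1), against 9.97% of all probe sets in that direction. After conditioning they were found for 6 of 9, namely Cat, Trx2 and cnc higher and Sod2, Sod3 and Trxr1 lower, against 13.2% of all probe sets higher and 14.9% lower.

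Other genes of redox defence were taken from 5 lists of 39 genes, of which 29 had a probe set of their own and 24 passed the filter on dim probe sets. By the brightest probe set of each gene, 0 of 24 passed for conditioning at 0 h with limma, where 4 had an unadjusted p under 0.05 (12.2% of all probe sets). At 24 h 0 of 24 passed, with 1 unadjusted p under 0.05. Their medians were 0.00 and 0.01. Between the times 1 gene was higher and 1 lower without conditioning, where 5.22% of all probe sets were called. After conditioning 2 of 24 were lower, where 4.67% of all were called, so both counts lie near the background. The medians were -0.01 and -0.01. Averaged over both arms, the comparison added after the data had been seen, 1 gene was higher (ry) and 5 were lower (Prx6c, SelR, maf-S, Men and ref(2)P), where 12% of all probe sets were called. That count of 6 became 3 in the # arrays alone and fell further without the 3 yolk arrays, where calls over all probe sets fell too. The count of 0 at 0 h became 1 when replicate 1 of the non-conditioned 0 h group, or replicate 1 or 2 of the non-conditioned 24 h group, was left out, and also with array weights. The count of 2 without conditioning became 4 without replicate 2 of the non-conditioned 24 h group, 4 with array weights and 1 in the # arrays alone. The count of 2 after conditioning fell without the 3 yolk arrays, and became 5 with array weights and 4 with only the groups compared. Calls over all probe sets are given below for part of these settings, and there they moved in the same direction.

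Among 5 peroxiredoxin and peroxidase genes, Prx6c fell in both arms. Prx6c encodes a peroxiredoxin, an enzyme that reduces peroxides through a reactive cysteine. It had 1688, 1766 and 1755 at 0 h and 1223, 1259 and 1245 at 24 h without conditioning. After conditioning it had 1682, 1699 and 1541 at 0 h and 1282, 1075 and 1056 at 24 h, and neither arm's groups overlapped. The falls were -0.48 ± 0.07 (adjusted p = 0.000356) and -0.53 ± 0.07 (adjusted p = 0.000211), and both passed in all 24 other settings. A further probe set of the array is shared by Prx6b, Prx6c and CG12896, so signal of near-identical genes may enter. Irc, a catalase-like peroxidase of immune defence, had values of -0.15 without and 0.06 after conditioning (adjusted p = 0.122 and 0.631).

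Repair of oxidised methionine is carried out by the sulfoxide reductases MsrA and SelR. Their differences below share the conditioned 0 h arrays with those of Sod3. MsrA had 457, 373 and 367 in non-conditioned and 519, 498 and 511 in conditioned heads at 0 h, which did not overlap. The difference was 0.35 ± 0.08 with an adjusted p of 0.0598, short of the threshold. SelR had 847, 950 and 831 against 1032, 940 and 1046 at 0 h, a difference of 0.20 (adjusted p = 0.206), with overlap.

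In conditioned heads at 24 h SelR lay at 733, 710 and 705, and its fall from 0 h of -0.48 ± 0.06 passed (adjusted p = 0.000355). The call was lost in 1 of 24 other settings, the fit without the 3 yolk arrays (-0.37), which leaves a single conditioned 24 h array. In the reported fit the dimmer SelR probe set had -0.05 between the times in conditioned heads (adjusted p = 0.77). MsrA had -0.22 in that comparison (adjusted p = 0.138). In the interaction SelR was at -0.38 and MsrA at -0.42, with adjusted p of 0.217 and 0.287.

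ry, the xanthine dehydrogenase gene, whose enzyme can yield superoxide, rose without conditioning from 169, 175 and 146 at 0 h to 239, 209 and 245 at 24 h. The rise of 0.46 ± 0.08 passed (adjusted p = 0.00222), but not within the # arrays alone (0.35, adjusted p = 0.089). After conditioning ry had a difference of 0.18 (adjusted p = 0.231). Duox, an oxidase gene, had 0.13 and -0.04 in these comparisons, neither past the threshold.

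The NADPH supply genes Men and Idh had time differences of -0.21 and 0.07 without and -0.19 and 0.08 after conditioning, none past the threshold. Averaged over both arms Men fell by 0.20 (adjusted p = 0.0169). That call was lost in the # arrays, without the 3 yolk arrays, and without replicate 3 of either non-conditioned group, conditioned 0 h replicate 2 or conditioned 24 h replicate 1, with adjusted p up to 0.266. The named partners of the cnc and Keap1 pair did not pass in either arm alone, but passed in the average. maf-S, the small Maf partner of CncC, had -0.20 and -0.19 (adjusted p = 0.0579 and 0.07), and ref(2)P, the fly p62, had -0.11 and -0.15 (adjusted p = 0.347 and 0.156). Within each arm maf-S passed in 5 of 24 other settings. In the average maf-S fell by 0.20 (adjusted p = 0.00467), a call lost only in the # arrays and without the 3 yolk arrays among 23 other settings. There ref(2)P fell by 0.13 (adjusted p = 0.0463), a call kept in 9 of 23 other settings. It was lost on leaving out any array but replicate 1 of the non-conditioned or replicate 3 of the conditioned 24 h group, with adjusted p over all settings of 0.0107 to 0.691. GstD1, a classical target of CncC in flies that was picked after its values were seen, had conditioning differences of -0.02 at 0 h and 0.03 at 24 h (95% intervals -0.18 to 0.13 and -0.13 to 0.18).

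**Figure D4:**
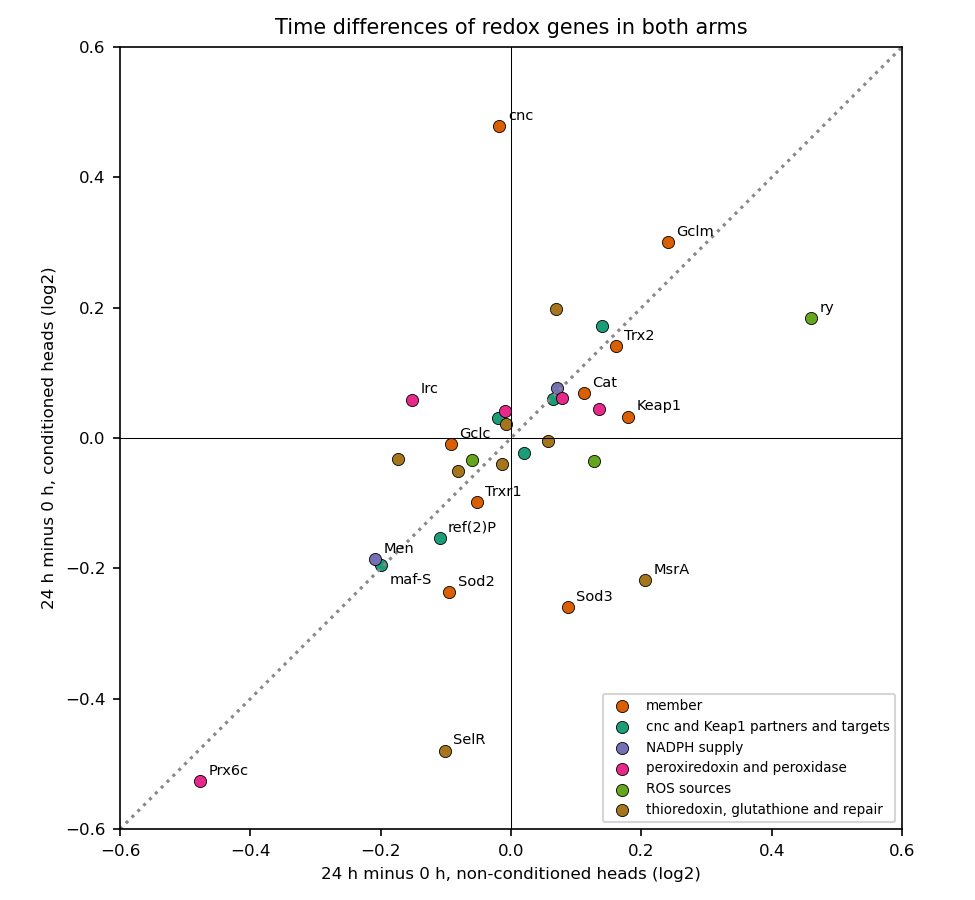
Log2 difference between 24 h and 0 h in non-conditioned heads (horizontal) and in conditioned heads (vertical) for the 9 antioxidant genes and 24 other redox genes, coloured by list (member: the 9 antioxidant genes), by the brightest probe set of each. The dotted line marks equal differences; Prx6c lies near it at -0.48 and -0.53, Trx2 at 0.16 and 0.14, whereas Sod3 lies at 0.09 and -0.26 and SelR at -0.10 and -0.48.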

How the data were processed

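The authors deposited linear intensities for 18952 probe sets on each array. How the scans were summarised, background-corrected or filtered is not given in the sources used here. A 2%-trimmed mean of 150 was found on all 12 arrays, so they had been scaled before deposit. The number of arrays limits the precision.

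Here 183 control probe sets were removed, intensities were taken as log2(intensity + 16), and the 60% of probe sets with the highest mean log2 value were kept (11261, floor 8.05). Gene names came from the platform annotation, updated through RefSeq's genes (assembly Release 6 plus ISO1 MT), which held 13544 of 13647 identifiers; 402 probe sets had several symbols and 4720 none. No sequence is shown, since the reference tables used hold none.

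The linear model of limma 3.58.1 (R 4.3.3) held a mean for each of the 4 groups plus the form of the title (8 with #, 4 without), followed by eBayes with a trend, 7 residual degrees of freedom, two-sided p-values adjusted over all probe sets kept. The fit was also run on simulated data, whose outcome is not given here and on which no result rests. Alternatives covered the title term, arrays used, normalization, offset, filter, variance and each array left out.

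Members, lists and tests were chosen with earlier results of these data known. All members were named. Of 5 redox lists, genes past the threshold in a comparison of single groups and times, and at least the 2 of lowest p between the times without conditioning, were named. For members that passed, the 3 genes nearest by root-mean-square difference were named. The time difference averaged over both arms was added after the data had been seen.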

Additional observations from a re-analysis of the deposited data

How the results depend on the processing

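The 11 antioxidant probe sets gave 66 values over 6 comparisons. Of these, 59 missed the threshold in the reported fit and in every one of the 24 other settings that gave the value. The fit of only the groups compared gives no interaction and no average, and the upper 40% of probe sets leaves out the dim cnc probe set. No value called in the reported fit turned its sign in another setting. The time difference of the brighter cnc probe set in conditioned heads, called with only the groups compared, had a fitted value of -0.47 without the 3 yolk arrays. For conditioning at 0 h, the count of 1 (Sod3) became 0 in the # arrays alone, without the 3 yolk arrays, without a filter and without the variance trend. Between the times after conditioning, the count of 1 became 0 in the same 4 settings, 2 under quantile normalization, with the upper 40% of probe sets and with array weights, and 3 with only the groups compared. Without conditioning the count of 0 became 1 under quantile normalization and with array weights. The average over both arms went from 2 to 0 in the # arrays alone, without the 3 yolk arrays, without a filter and without the trend, and to 1 under median centring. With single arrays left out, counts ran from 0 to 1 at 0 h, from 0 to 2 between the times after conditioning, from 0 to 2 for the average and stayed at 0 in the other 3 comparisons. The fits without a filter test more probe sets and those without arrays have smaller groups. Why the counts moved was not tested in any of these settings. Over all probe sets, the 65 calls at 0 h became 17 in the # arrays alone and without the 3 yolk arrays, 28 without a filter and 8 without the trend. The 526 calls between the times after conditioning became 18 without the 3 yolk arrays, 151 in the # arrays alone, 334 without a filter, 235 without the trend, 976 with array weights and 1095 with only the groups compared. The 588 calls without conditioning became 246 in the # arrays alone, 342 without the trend and 291 with only the groups compared. The 1348 calls of the average became 571 in the # arrays alone and 231 without the 3 yolk arrays. The 0 calls for conditioning at 24 h became at most 8 (# arrays alone), and the 0 calls of the interaction at most 21 (array weights). With single arrays left out, these counts over all probe sets ran from 14 to 150 at 0 h, from 0 to 6 at 24 h, from 0 to 8 in the interaction, from 297 to 755 and from 227 to 729 between the times without and after conditioning, and from 927 to 1619 for the average. No paired analysis was possible because the labels give the groups no shared replicate numbers. Signal near the floor limits the dim cnc probe set.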

Other observations

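Among the antioxidant transcripts, Gclm and cnc varied most over the 12 arrays. The SD over all arrays was 3.97% of the mean for Gclc, 4.51% for Trxr1, 4.72% for Cat and 7.04% for Trx2. It was 8.65% for Keap1, 8.94% for Sod2, and 11.5% and 9.46% for the brighter and the dimmer Sod3 probe set. For Gclm it was 25.4%, and for the brighter and the dimmer cnc probe set 24.4% and 19.1%. The lowest and the highest cnc array, at 676 and 1473, both belonged to the group non-conditioned at 24 h (replicates 2 and 3). The lowest and highest Gclm arrays, at 76.8 and 196, were conditioned 0 h replicate 1 and conditioned 24 h replicate 1. Neither gene singled out the 3 arrays with yolk transcripts: their cnc values were 770, 1342 and 1447 and their Gclm values 120, 196 and 124. These are descriptions without a test.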
